A study of Mus musculus with 8 samples.

Results

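The TCF/LEF transcription factors and the Groucho corepressors were followed as 8 genes, Tcf7, Lef1, Tcf7l1 and Tcf7l2 on the one side and Tle1, Tle2, Tle3 and Tle4 on the other, chosen by symbol out of the 27998 genes of the deposited matrices. All 8 had UMIs (unique molecular identifiers, each standing for 1 captured transcript) in both matrices. Single cells carrying the epithelial surface protein EpCAM had been sorted from small intestinal crypts of adult mice. The group labelled KO was homozygous for a deletion of ieCtnnb1, an intestinal enhancer upstream of Ctnnb1 (the gene of β-catenin), made by CRISPR/Cas9. The group labelled WT was, per the study's text, made up of H11 i.enh reporter mice, which carry the enhancer core, a Shh promoter and LacZ-iCre at the H11 locus, so it was not plain wild type. The labels list 4 samples in each group, yet each group was deposited as 1 matrix in which no barcode could be assigned to a sample. Each group therefore stands for 1 pooled sample, no test between WT and KO was possible, and every interval below is a 95% interval for counting error only.

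TCF/LEF proteins bind DNA through an HMG box and sit on Wnt target genes whether or not the pathway is active. When β-catenin is scarce they recruit Groucho proteins, which bring histone deacetylases and keep the targets silent, and β-catenin takes the place of Groucho when Wnt signalling is on. In the intestine Tcf7l2 (also called TCF4) is known as the factor that keeps crypt cells dividing, and Groucho proteins also serve repressors outside the pathway, among them the Hes factors of Notch signalling. The comparison of WT with KO asks how the nuclear partners of β-catenin were expressed once an enhancer of its gene was missing.

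The 8 genes lie apart on mouse build GRCm38 (mm10) except for one chromosome that holds a pair. In GENCODE M21 Tcf7 is at chr11:52252371-52283014, minus strand, Lef1 at chr3:131110471-131224356, plus strand, and Tcf7l1 at chr6:72626378-72789254, minus strand. Tcf7l2 (chr19:55741820-55933654, plus strand) and Tle4 (chr19:14448150-14598051, minus strand) share chromosome 19. Tle1 is at chr4:72117142-72200919, minus strand, Tle2 at chr10:81574561-81590845, plus strand, and Tle3 at chr9:61372366-61418497, plus strand. Their summed exon length ran from 2625 bases for Tcf7 and 3924 for Tcf7l1, over 5702 for Tle4, 6221 for Tle2, 8711 for Tle1, 8775 for Tcf7l2 and 8788 for Lef1, to 11653 for Tle3. Tcf7, Lef1, Tcf7l1 and Tcf7l2 overlap other annotated genes on their own strand (Gm26551, Gm42449, a group of Gm genes, and Ppnr), where reads could be shared, while no gene overlaps Tle3 or Tle4.

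TCF/LEF proteins recognise the letters CTTTGA, so the starts of the members were searched for them on both strands (TCAAAG on the other). RefSeq (GRCm38.p6) listed 14 starts for the 8 genes, each with a window of 300 bases that reaches from 250 before to 50 after the start. Of these windows 1 held the letters, an internal start of Lef1, where they lay at positions -180 and -120; of all 32851 windows 16% held them. The 250 bases before the start are shown for that window and for the main starts of Tcf7l2, Tle3 and Tle4, the genes on which the comparison of WT and KO turned, with the searched letters in capitals. By GENCODE M21 the first 3 lie outside the annotated gene.
Tcf7l2, chr19:55741560-55741809, plus strand: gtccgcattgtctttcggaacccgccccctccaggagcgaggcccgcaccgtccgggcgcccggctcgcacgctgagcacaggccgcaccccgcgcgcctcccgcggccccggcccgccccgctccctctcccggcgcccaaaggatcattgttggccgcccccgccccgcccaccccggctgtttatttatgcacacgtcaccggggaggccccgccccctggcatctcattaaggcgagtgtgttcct
Tle3, chr9:61372116-61372365, plus strand: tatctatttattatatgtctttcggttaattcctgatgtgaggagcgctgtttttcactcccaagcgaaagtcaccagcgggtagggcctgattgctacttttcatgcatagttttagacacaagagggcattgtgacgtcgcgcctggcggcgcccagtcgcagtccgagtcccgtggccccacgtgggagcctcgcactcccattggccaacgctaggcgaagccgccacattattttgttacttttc
Tle4, chr19:14598184-14598433, minus strand: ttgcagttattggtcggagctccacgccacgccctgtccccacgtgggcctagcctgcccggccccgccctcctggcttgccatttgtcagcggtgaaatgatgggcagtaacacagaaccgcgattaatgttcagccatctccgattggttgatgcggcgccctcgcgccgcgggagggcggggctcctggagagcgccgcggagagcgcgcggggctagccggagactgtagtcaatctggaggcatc
Lef1 internal start, chr3:131156044-131156293, plus strand, in an intron: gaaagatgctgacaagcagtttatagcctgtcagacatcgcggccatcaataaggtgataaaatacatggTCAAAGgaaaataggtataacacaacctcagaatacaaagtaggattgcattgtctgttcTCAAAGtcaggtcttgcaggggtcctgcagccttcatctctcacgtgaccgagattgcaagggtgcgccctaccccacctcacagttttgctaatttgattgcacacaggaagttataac
The 250 bases were rich in G and C for Tcf7l2 (72.8%) and Tle4 (65.2%), and less so for Tle3 (52.4%) and the internal start of Lef1 (44.8%). A match of these letters is a description of the sequence, and a window without them says only that they are not in it.

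The WT matrix held 15987 barcodes with 134876816 UMIs and the KO matrix 12763 barcodes with 123794575 UMIs, of which 13095 and 8658 passed the limits on genes and on mitochondrial UMIs. There were 57 barcodes that occurred in both matrices, 29 of them among those that passed. Cells with at least 1500 UMIs were gated by marker genes, none of which is a member, and most fell into 8 classes. No class was given to 1264 WT and 1364 KO cells whose scores met no gate, 9.65% and 15.8% of the kept cells. Another 535 WT and 356 KO cells, 4.09% and 4.11%, had an intermediate share of Paneth markers and were also left out. The classes are CBC-like (crypt base columnar stem cells, 670 WT and 381 KO cells), TAC-like (transit-amplifying, 1386 and 714), PC-like (Paneth, 3588 and 1080), GC-like (goblet, 1275 and 504), EEC-like (enteroendocrine, 189 and 99), TC-like (tuft, 93 and 45), imEC-like (immature enterocytes, 578 and 420) and mEC-like (mature enterocytes, 1010 and 918). In no class did a marker of another class stand among the 10 genes with the largest fold, although in mEC-like cells those 10 held 0 of the class's own markers in WT and 1 in KO and were led by Apoa4, Fabp1, Rbp2 and Apoa1. KO cells were deeper in every class, with a median of 11694 UMIs against 8064 in CBC-like cells, for example. In the classes other than PC-like, Paneth markers made up 1.87% to 2.71% of the UMIs in KO and 3.37% to 5.09% in WT. Ctnnb1 itself was at 119 CPM (UMIs of a gene per 1000000 UMIs) in all kept WT cells and at 91.8 CPM in KO, and its KO to WT log2 ratio lay between -0.85 and -0.32 over the 8 classes.

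Tcf7l2 was by far the most abundant TCF/LEF gene. In all kept cells it had 5372 UMIs in WT and 3482 in KO, which is 40.9 CPM (39.8 to 42.0) and 29.7 CPM (28.7 to 30.7). It made up 93.8% of all TCF/LEF UMIs in WT (93.1% to 94.4%) and 94.5% in KO (93.7% to 95.2%). In all kept WT cells Tcf7 was at 1.97 CPM, and Tcf7l1 and Lef1 were each at 0.37 CPM. Across WT classes its level was 80.1 CPM in GC-like cells (74.0 to 86.5), 77.3 CPM in TC-like cells, 65.6 CPM in mEC-like, 65.0 CPM in imEC-like, 60.7 CPM in TAC-like, 50.8 CPM in EEC-like, 50.2 CPM in CBC-like and 24.9 CPM in PC-like cells (23.8 to 26.0). In this order only the last step, from CBC-like to PC-like, was larger than the counting error of neighbours. In KO the range ran from 50.1 CPM in mEC-like cells to 13.9 CPM in PC-like cells, and again only the step to PC-like cells exceeded counting error.

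The low place of PC-like cells depended on the denominator, because a few Paneth products filled their UMIs. With the genes above 1% of a class's UMIs left out of the total, Tcf7l2 was at 104.1 CPM in WT PC-like cells, next to 104.7 CPM in GC-like cells, and in KO at 54.8 CPM next to 55.8 CPM. The 18 genes left out held 76.1% of the WT and 74.7% of the KO UMIs of PC-like cells. Tle1 and Tle4 in WT PC-like cells came to 35.5 and 29.8 CPM on this scale, which for Tle4 was still the lowest of the classes with a value there. Folds over all other classes together, also given below, count PC-like cells at their full total and so depend on that choice. Shares within the family, given further below, do not depend on it.

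Tcf7, which encodes TCF1, had its highest CPM of the WT classes in stem-like cells. In KO they came second to TC-like cells, whose 4.65 CPM rest on 2 UMIs. It had 42 UMIs (7.27 CPM, 5.24 to 9.83) in WT CBC-like cells and 23 UMIs (4.28 CPM, 2.71 to 6.42) in KO, and its level there was 4.74 times that of all other WT classes together and 4.05 times in KO. No neighbouring classes in its order were separated by counting error. TAC-like cells had 22 UMIs in WT (1.79 CPM) and 34 in KO (2.60 CPM). PC-like cells held 123 of its 258 UMIs in WT, at 1.59 CPM. With the genes above 1% left out of the total they were at 6.64 CPM. The fold of CBC-like cells over the other classes therefore depends on the denominator. CBC-like cells had too few Tcf7 UMIs for a value on that scale. Since Tcf7 and Lef1 are also genes of T cells, the 13 lymphocyte markers were counted. All 13 were found, with 1 to 73 UMIs each and 227 in all in WT, and 2 to 109 UMIs each and 235 in all in KO. Of the Tcf7 UMIs, 1 of 258 in WT and 4 of 152 in KO came from barcodes with any lymphocyte UMI, and none of the 49 and 12 Lef1 UMIs did.

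Lef1 and Tcf7l1 were close to the limit of detection. Lef1 had 49 UMIs in all kept WT cells (0.37 CPM) and 12 in KO (0.10 CPM), and 33 and 6 of these lay in PC-like cells. It had 0 UMIs in GC-like cells of both matrices, which allows up to 0.37 CPM in WT and 0.36 CPM in KO at 3 UMIs. Barcodes under 1500 UMIs, which were not put into classes, held 3 Lef1 UMIs in WT (1.24 CPM) and 1 in KO, so that its level in PC-like cells (0.43 CPM, 0.29 to 0.60, in WT) was not above that of shallow barcodes. Tcf7l1, the repressor of the family known from pluripotent cells, had 48 UMIs in WT and 38 in KO. In WT GC-like cells it had 15 UMIs (1.87 CPM, 1.05 to 3.09), 8.73 times the level of all other classes, and in KO GC-like cells 8 UMIs (0.97 CPM). TC-like cells gave 6.72 CPM in WT and 6.98 CPM in KO from only 4 and 3 UMIs.

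**Figure D1:**
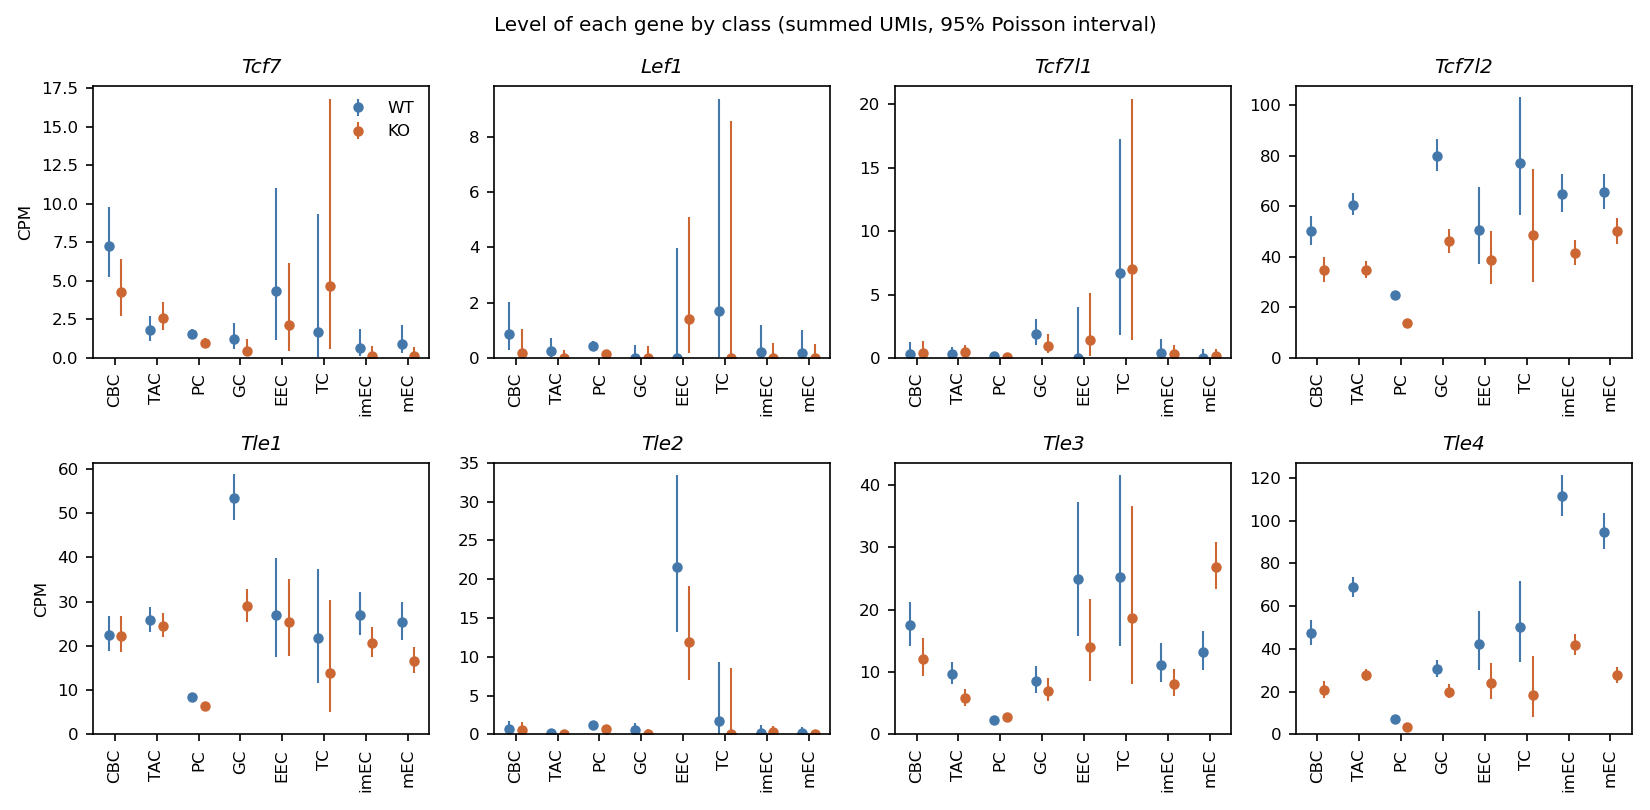
Level of each of the 8 genes (CPM of summed UMIs, vertical axis, own scale for each gene) in the 8 marker-gated classes (horizontal axis) of the WT (blue) and KO (orange) matrix; bars are 95% Poisson intervals. Tcf7 was highest in WT CBC-like cells at 7.27 CPM, Tle2 in WT EEC-like cells at 21.6 CPM and Tle4 in WT imEC-like cells at 111 CPM, while Tle3 in mEC-like cells stood at 13.2 CPM in WT and 26.9 CPM in KO.

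The Groucho genes differed in where they were most abundant. Tle4 followed the absorptive lineage, with 111 CPM in WT imEC-like cells (102 to 121), 94.9 CPM in mEC-like (86.9 to 104) and 68.8 CPM in TAC-like cells (64.3 to 73.6), each step larger than its counting error. It was at 50.4 CPM in TC-like, 47.4 CPM in CBC-like, 42.1 CPM in EEC-like and 30.6 CPM in GC-like cells, where neighbours were not separated, and at 7.11 CPM in PC-like cells. In KO imEC-like cells were again the highest at 42.0 CPM (37.3 to 47.2), followed by TAC-like (27.7 CPM) and mEC-like cells (27.6 CPM), which were not separated. Tle4 was the leading member in WT imEC-like cells at 111 CPM, ahead of Tcf7l2 at 65.0 CPM.

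Tle1 was most abundant in goblet-like cells of WT. It had 428 UMIs in WT GC-like cells (53.4 CPM, 48.5 to 58.7), 4.06 times the level of all other classes, and the step to the next class (imEC-like, 27.0 CPM) exceeded counting error. In KO GC-like cells it had 239 UMIs (28.9 CPM, 25.4 to 32.8). They were still first, but the next classes, EEC-like at 25.3 CPM and TAC-like at 24.6 CPM, were not separated from their neighbours. The remaining WT classes other than PC-like (8.49 CPM) lay between 21.9 and 27.0 CPM.

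Tle2 was concentrated in enteroendocrine-like cells. There it had 20 UMIs in WT (21.6 CPM, 13.2 to 33.4) and 17 in KO (12.0 CPM, 6.97 to 19.1), 23.1 and 27.1 times the level of all other classes, and the step to the next class exceeded counting error in both matrices. On the full total every other class was at or below 1.68 CPM. The 153 WT and 66 KO UMIs of Tle2 over all kept cells included 92 and 32 from PC-like cells, where its level was 1.19 CPM in WT and 0.72 CPM in KO. With the genes above 1% left out of the total, WT PC-like cells were at 4.97 CPM. Shallow WT barcodes were at 5.38 CPM from 13 UMIs.

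Tle3 was highest in small classes of WT, with 25.2 CPM in TC-like cells from 15 UMIs and 24.8 CPM in EEC-like cells from 23. CBC-like cells followed at 17.5 CPM (14.2 to 21.2), mEC-like cells at 13.2 CPM (10.3 to 16.6), imEC-like at 11.2 CPM, TAC-like at 9.68 CPM and GC-like at 8.61 CPM, and none of these 7 classes was separated from the next among them. PC-like cells were last at 2.31 CPM, a step from GC-like cells larger than counting error. In KO mEC-like cells came first at 26.9 CPM (23.3 to 30.8). The others kept to 5.82 to 18.6 CPM, apart from PC-like cells at 2.76 CPM. The last place of PC-like cells depended on the denominator. With the genes above 1% left out of the total, they were at 9.66 CPM in WT, beside 10.6 CPM in TAC-like cells. In KO they were then at 10.9 CPM, above imEC-like (8.99 CPM) and TAC-like cells (6.20 CPM).

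Genes whose levels ran most like those of a member across classes were read from the Pearson r of log2(CPM + 1) over the 8 WT classes, among 7306 genes with enough UMIs. These r rest on 8 points of 1 matrix, 1 of them the PC-like class with its low CPM, and are descriptions. For Tcf7l2 they were Chfr (0.99, and 0.84 in KO), Slc35a3 (0.99, and 0.99 in KO) and Mospd3 (0.98, and 0.87 in KO). Tle1 ran with Golga5 (0.99, and 0.54 in KO), Stx5a (0.99, and 0.92 in KO) and Tbrg1 (0.99, and 0.86 in KO). Tle3 ran with Flywch1 (0.99, and 0.90 in KO), Akap8l (0.99, and 0.60 in KO) and Desi1 (0.98, and 0.73 in KO). Tle4 ran with Pgam1 (0.99, and 0.99 in KO), Slc4a4 (0.99, and 0.96 in KO) and Mal2 (0.99, and 0.97 in KO). Among the members the highest r in WT was that of Tcf7l2 and Tle1, 0.86, and it was 0.72 in KO.

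The make-up of the family differed between classes. Groucho genes held 55.5% of the family's UMIs in all kept WT cells (54.7% to 56.4%) and 57.9% in KO (56.9% to 59.0%). In WT their share was lowest in PC-like cells at 41.4% (39.8% to 43.0%), and it was 52.8% in GC-like, 60.0% in CBC-like, 62.4% in TAC-like, 66.7% in mEC-like and 69.3% in imEC-like cells (66.4% to 72.2%). In KO it was lower in imEC-like cells at 62.9% (59.4% to 66.3%) and in mEC-like cells at 58.5% (55.3% to 61.7%), and higher in PC-like cells at 47.2% (44.4% to 50%). The WT and KO intervals of these 3 classes did not overlap. In CBC-like cells the share was 60.0% in WT and 58.5% in KO, with overlapping intervals, as in TAC-like, GC-like, EEC-like and TC-like cells.

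Within the family Tle4 held a smaller share in KO than in WT in most classes. In mEC-like cells it had 47.4% of the family's UMIs in WT (44.4% to 50.4%) and 22.7% in KO (20.1% to 25.6%), in imEC-like cells 51.6% and 37.2%, in TAC-like cells 41.0% and 28.8%, and in CBC-like cells 32.3% (29.2% to 35.6%) and 21.8% (18.3% to 25.7%). GC-like cells had 17.3% in WT (15.4% to 19.4%) and 19.3% in KO (16.8% to 22.2%), with overlapping intervals. Tle1 held 15.3% in WT CBC-like cells (13.0% to 17.9%) and 23.4% in KO (19.8% to 27.3%), and 15.4% and 25.6% in TAC-like cells. In mEC-like cells the share of Tle1 was 12.6% in WT and 13.7% in KO, while that of Tle3 was 6.59% in WT (5.19% to 8.22%) and 22.1% in KO (19.4% to 24.9%). The share of Tcf7l2 was 34.2% and 36.5% in CBC-like cells and 36.2% and 36.3% in TAC-like cells.

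**Figure D2:**
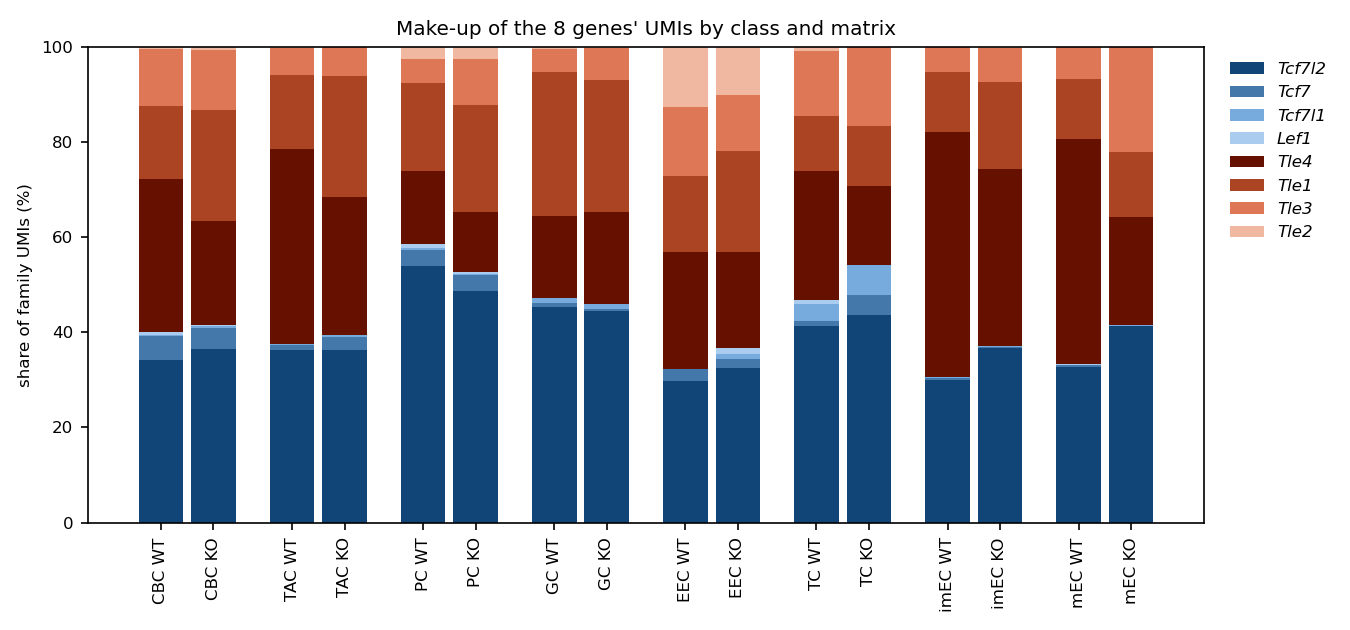
Share of the 8 genes' UMIs held by each gene (percent, vertical axis) in each class of the WT and KO matrix (bars, side by side); blue shades are TCF/LEF genes and red shades Groucho genes. In mEC-like cells Tle4 held 47.4% in WT and 22.7% in KO, and Tle3 6.59% and 22.1%.

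For the comparison of KO with WT, a member was taken up in a class where both matrices together held at least 50 of its UMIs, and a difference was counted when it reached 1.5-fold. In all kept cells 4 of the 8 members were lower in KO by that fold (Tcf7, Lef1, Tle2 and Tle4), as were 20.5% of 12767 genes, and 0 were higher, against 18.6% of genes. In CBC-like cells 2 of 5 were lower (36.1% of genes) and 0 higher (4.48%). TAC-like cells had 3 of 5 lower (38.6%) and 0 higher (4.52%), PC-like cells 4 of 6 lower (27.8%) and 0 higher (8.44%), and GC-like cells 3 of 4 lower (32.4%) and 0 higher (13.3%). In EEC-like cells 1 of 3 was lower (31%) and 0 higher (19%), and in TC-like cells the 1 member taken up was lower (24.6%) and 0 higher (15.9%). Of 4 members in imEC-like cells 2 were lower (39.2%) and 0 higher (5.55%), and of 4 in mEC-like cells 2 were lower (40.2%) and 1 higher (6.72%). With so few members these counts are descriptions.

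In most classes more genes were lower than higher in KO, and the ratio went with length. All genes taken up in CBC-like cells had a median log2 ratio of -0.32, and the 5 members one of -0.53. By quartile of exon length the medians of all genes were 0.23, -0.21, -0.51 and -0.82, the last for genes from 7018 bases on. Tcf7l2, Tle1, Tle3 and Lef1 belonged to the longest quartile in every class, Tle4 and Tle2 to the next one. Over all genes the medians were -0.41 for mEC-like, -0.36 for imEC-like, -0.37 for TAC-like, -0.22 for GC-like and -0.23 for PC-like cells, with -0.91, -0.92, -0.89, -0.74 and -0.62 in the longest quartile. The median was closer to 0 in EEC-like cells (-0.13), in all kept cells (-0.045) and in TC-like cells (0.0097), where 49.4% of genes were below 0, while the longest quartile was at -0.77, -0.47 and -0.73. The part of this length trend in the values of the members was not tested. Ratios of the members are therefore given also against the median of genes of like length. Per cell rather than in CPM, the deeper KO cells often held more of a member, as with Tcf7l2 in CBC-like cells at 433 UMIs per 1000 cells in WT and 491 in KO.

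Tle4 was lower in KO in each of the 7 classes where it was taken up. It went from 274 to 112 UMIs in CBC-like cells (47.4 to 20.8 CPM), which is -1.19 as a log2 ratio (-1.52 to -0.86). The mEC-like cells had 94.9 CPM in WT and 27.6 CPM in KO (-1.78, -2.02 to -1.55), the imEC-like cells 111 and 42.0 CPM (-1.41, -1.62 to -1.20), the TAC-like cells 68.8 and 27.7 CPM (-1.31, -1.49 to -1.13) and the PC-like cells 7.11 and 3.57 CPM (-0.995, -1.26 to -0.74). The gated cells fell into different clusters in the 2 matrices. Of the TAC-like cells, 587 in WT and 179 in KO lay in clusters named TAC-like and 285 and 299 in clusters named CBC-like, and of the CBC-like cells 181 in WT and 7 in KO lay in clusters named TAC-like. Of the imEC-like cells, 203 in WT and 35 in KO lay in clusters named mEC-like and 0 and 161 in clusters named imEC-like. With clusters in place of gates the ratio of Tle4 was -0.94 for TAC-like, -1.26 for mEC-like and -1.40 for CBC-like cells. Against genes of like length its log2 ratio was -1.19 in mEC-like, -0.83 in imEC-like, -0.75 in TAC-like, -0.68 in CBC-like and -0.64 in PC-like cells. The smallest differences were in EEC-like cells (-0.82, -1.52 to -0.12, from 39 and 34 UMIs) and GC-like cells (30.6 to 20.1 CPM, -0.60, -0.90 to -0.31), which is 0.52 and 0.18 below genes of like length. In GC-like cells it was -0.02 when every cell was thinned to 1500 UMIs.

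Tcf7l2 was lower in KO too, in CBC-like, imEC-like and mEC-like cells by less than the median of other long transcripts and in PC-like cells by more. In CBC-like cells it went from 290 to 187 UMIs (50.2 to 34.8 CPM), which is -0.53 as a log2 ratio (-0.80 to -0.26), where the longest quartile had a median of -0.82. The TAC-like cells gave -0.80 (-0.97 to -0.63) beside -0.89 for that quartile, the imEC-like cells -0.65 (-0.89 to -0.41) beside -0.92, the GC-like cells -0.79 (-0.98 to -0.61) beside -0.74, and the PC-like cells -0.84 (-0.98 to -0.71) beside -0.62. In mEC-like cells it was -0.39 (-0.60 to -0.18) beside -0.91, the widest gap, and 0.01 with cells thinned to 1500 UMIs. In EEC-like (-0.39 beside -0.77) and TC-like cells (-0.66 beside -0.73) the interval included 0.

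Tle1 was at nearly the same level in both matrices in dividing cells. It had 130 UMIs in WT CBC-like cells (22.5 CPM) and 120 in KO (22.3 CPM), which is -0.01 as a log2 ratio (-0.38 to 0.36), and 318 and 321 UMIs in TAC-like cells (25.9 and 24.6 CPM, -0.07, -0.30 to 0.15). Against genes of like length it was higher by 0.81 in both. In GC-like cells, where it was most abundant, it went from 53.4 to 28.9 CPM (-0.88, -1.12 to -0.65), 0.14 below genes of like length. The mEC-like cells gave -0.60 (-0.96 to -0.24), the imEC-like cells -0.39 (-0.74 to -0.03) and the PC-like cells -0.40 (-0.61 to -0.20), each above the median of genes of like length.

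Tle3 was higher in KO in mEC-like cells and lower in CBC-like and TAC-like cells, but against genes of like length it was higher in each of the 6 classes where it was taken up. In mEC-like cells it had 72 UMIs in WT (13.2 CPM, 10.3 to 16.6) and 203 in KO (26.9 CPM, 23.3 to 30.8), which is 1.03 as a log2 ratio (0.63 to 1.43), 1.94 above genes of like length. CBC-like cells went from 101 to 65 UMIs (17.5 to 12.1 CPM, -0.53, -1.004 to -0.07) and TAC-like cells from 119 to 76 UMIs (9.68 to 5.82 CPM, -0.74, -1.17 to -0.31). Against genes of like length these are 0.29 and 0.15 above. Its intervals included 0 in PC-like (0.26), GC-like (-0.29) and imEC-like cells (-0.47), which lay 0.88, 0.45 and 0.45 above genes of like length. Over all kept cells it was 0.34 (0.20 to 0.48), and -0.001 with the genes above 1% out of the total.

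The mEC-like cells of the 2 matrices were not alike in make-up. At least 2 UMIs of Ada (adenosine deaminase, known from the villus tip) and Clca4a together were found in 134 of the 918 KO cells but in 7 of the 1010 WT cells. The choice of these genes, which are also markers of the gate, was made after the values had been seen. Within KO, Tle3 was at 44.1 CPM (31.2 to 60.5) in those 134 cells and at 24.9 CPM (21.1 to 29.2) in the 715 cells with none, and Tle4 at 16.2 and 29.1 CPM. Between WT and KO cells with none, the log2 ratio was 0.92 (0.50 to 1.35) for Tle3 and -1.70 (-1.95 to -1.45) for Tle4. Barcodes under 1500 UMIs had 19.4 CPM of Tle3 in WT and 49.8 CPM in KO. Of these barcodes 686 of 2507 in WT and 1620 of 2777 in KO fell into clusters named mEC-like, and their part in the difference was not tested.

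The rarer members gave values in few classes. For Tcf7 the log2 ratio was -0.75 (-1.29 to -0.24) in PC-like cells, where it went from 123 to 42 UMIs, -0.76 (-1.57 to 0.00) in CBC-like cells and 0.54 (-0.28 to 1.38) in TAC-like cells. In the shortest quartile it stood 0.99 and 0.98 below genes of like length in CBC-like and PC-like cells. These gaps depend on the edge of the quartile, since Tcf7 has 2625 bases and the next quartile began at 2776 and 2716. The medians of that next quartile were lower, at -0.21 and -0.11. Over all kept cells Tcf7 fell into the second quartile and stood 0.71 below it. Tle2 was taken up in PC-like cells alone, with 92 and 32 UMIs and a ratio of -0.73 (-1.35 to -0.13), 0.37 below genes of like length. In EEC-like cells, its main class, the 37 UMIs of both matrices were below the minimum. Lef1 and Tcf7l1 were taken up over all kept cells only, at -1.87 (-2.91 to -0.94) and -0.17 (-0.83 to 0.47), 1.39 and 0.28 below genes of like length. WT had more PC-like cells, 27.4% of kept cells against 12.5%, and most Lef1 UMIs of WT lay in them. Within PC-like cells Lef1 was at 0.43 CPM (0.29 to 0.60) in WT and 0.13 CPM (0.05 to 0.29) in KO. These rest on 33 and 6 UMIs, below the minimum, or 9.20 and 5.56 UMIs per 1000 cells. The parts of PC-like cell number and of the level within them in the Lef1 value over all kept cells were not tested.

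**Figure D3:**
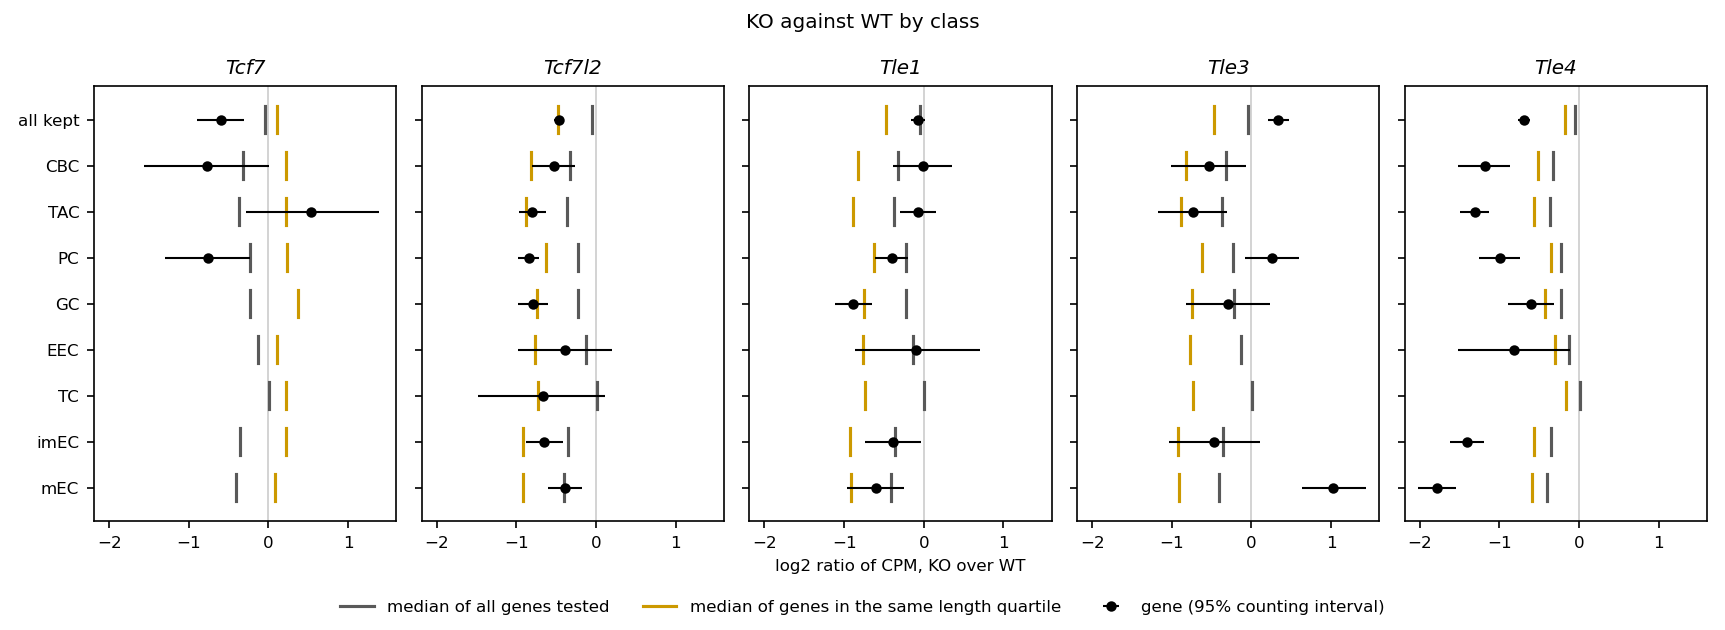
Log2 ratio of CPM, KO over WT (horizontal axis), in all kept cells and each class (vertical axis) for 5 members. These were taken up in more classes than the other members, though Tcf7 only in CBC-like, TAC-like and PC-like cells. Black points carry 95% counting intervals. Grey ticks mark the median of all genes taken up and yellow ticks the median of genes in the same quartile of exon length. Tle4 lay left of both ticks in each class with a value, from -0.60 in GC-like to -1.78 in mEC-like cells, and Tle3 in mEC-like cells lay right of 0 at 1.03.

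Around the members, 61 symbols of other genes of nuclear Wnt signalling were listed, of which 60 were in the matrices and 48 were taken up in CBC-like cells. The symbol not found, Tle5, is another name of Aes, which was in the matrices. Of these 48, 25 were lower in KO by 1.5-fold and 2 higher, with a median log2 ratio of -0.60, where 36.1% of all genes were lower and 4.48% higher. The coactivators of β-catenin had 10 of 13 lower and 0 higher, at a median of -0.87, where the longest quartile of all genes had -0.82. They were led by Tbl1xr1, which exchanges corepressors for coactivators (63.7 to 23.6 CPM, -1.43, -1.73 to -1.14), and Med12, a subunit of Mediator (18.4 to 7.26 CPM, -1.34, -1.91 to -0.80). Ctnnb1 went from 227 to 143 CPM (-0.66, -0.80 to -0.54), 0.15 below genes of like length, and Prmt1, an arginine methyltransferase, from 123 to 171 CPM (0.47, 0.33 to 0.61). All 6 listed kinases that act on TCF/LEF proteins, directly or through another kinase, were lower by the fold. Their median was -0.98, where all genes had -0.32 and the longest quartile of all genes -0.82.

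The targets had 5 of 13 lower and 1 higher, at a median of -0.30 near that of all genes. Axin2, the scaffold that feeds back on β-catenin, went from 142 to 61.0 CPM (-1.22, -1.41 to -1.03), and Ephb2, a receptor that places cells along the crypt, from 73.4 to 30.3 CPM (-1.28, -1.54 to -1.01). Ascl2, a stem cell factor and also a marker of the CBC gate, went from 67.3 to 111 CPM (0.72, 0.53 to 0.91). Inhibitors of the complex had 2 of 11 lower and 1 higher, and partners of Groucho 2 of 5 lower and 0 higher. The inhibitor that was higher was Aes, a short Groucho relative without the WD40 domain that can act against the full-length proteins. Aes went from 283 to 425 CPM in CBC-like cells (0.59, 0.50 to 0.68), 0.80 above genes of like length. It was higher in KO in each of the 8 classes, from 0.21 (0.04 to 0.38) in EEC-like to 0.80 (0.53 to 1.08) in TC-like cells. In EEC-like cells it stood only 0.10 above genes of like length, whose median of 0.10 lay within its interval. In the other classes the list had 27 of 48 genes lower (38.6% of all genes) and 1 higher (4.52%) in TAC-like, 17 of 51 (27.8%) and 5 (8.44%) in PC-like, and 23 of 45 (32.4%) and 3 (13.3%) in GC-like cells. It had 19 of 36 lower (31%) and 3 higher (19%) in EEC-like, 12 of 21 (24.6%) and 1 (15.9%) in TC-like, 22 of 42 (39.2%) and 3 (5.55%) in imEC-like, and 27 of 39 (40.2%) and 0 (6.72%) in mEC-like cells.

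**Figure D4:**
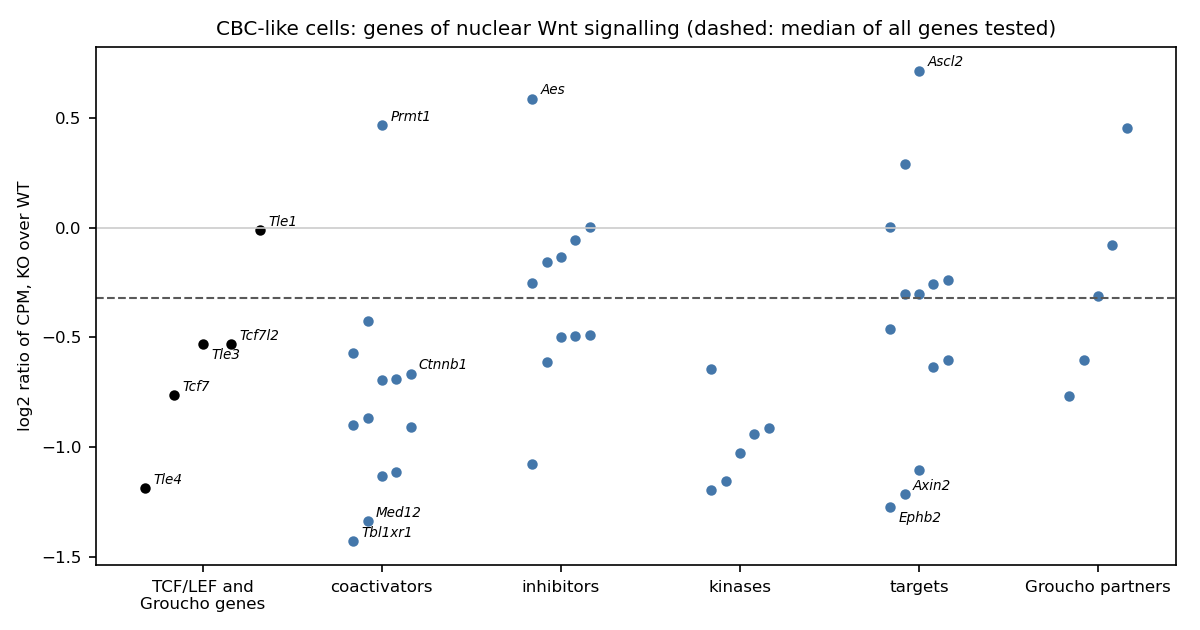
Log2 ratio of CPM, KO over WT (vertical axis), of single genes in CBC-like cells, for the members (black) and 5 groups of other genes of nuclear Wnt signalling (blue); the dashed line is the median of all genes taken up, -0.32, and points are spread sideways only to be seen. Tle4 was the lowest member at -1.19 and Tle1 the highest at -0.01, and all 6 kinases lay below the dashed line.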

How the data were processed

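Crypt cells of 2 genotypes had been run on the 10x Genomics 3' v2 protocol per the labels. The authors deposited 1 filtered matrix per genotype with raw UMI counts per gene and barcode. The file headers name Cell Ranger 4.0.0, the submitters' processing notes Cell Ranger 2.1.1 and mm10. Barcodes with at least 200 genes and at most 30% mitochondrial UMIs were kept, the study's limits. KO and WT cells were gated with Python 3.11.15, numpy 2.4.6 and scipy 1.17.1. PC-like cells had at least 30% of UMIs from Paneth markers (15% to 30% left ungated), EEC-like at least 0.5% and TC-like at least 0.2% from their markers. The other classes came from marker scores of cells thinned to 1500 UMIs. The best score had to reach its cutoff and lead the second-best class by 0.25 SD. In 930 WT and 875 KO cells the best score lay within 0.25 SD of its cutoff, on either side. Those above the cutoff were not left out for this. The gated classes are rebuilt and may differ from the study's. Scrublet (scanpy 1.11.5) called 1 barcode in each matrix, so it did not work and doublets stayed in. Clusters for an alternative came from leidenalg 0.10.2.

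CPM are UMIs of a gene per 1000000 UMIs of a class, with exact Poisson intervals; log2 ratios have exact conditional binomial and shares exact Clopper-Pearson intervals at 95%. Genes needed 50 UMIs over both matrices. Exon length was taken from GENCODE M21, where 27645 of 27998 identifiers (98.7%) matched. Intervals were tested on simulated data. The members and lists were chosen with earlier results of these data known. Named were all 8 members and, of the pathway list, Ctnnb1, Axin2 and the 3 largest rises and falls in CBC-like cells, plus the 3 genes most like each member. Marker lists of cells outside the epithelium gave 227 WT and 235 KO UMIs (lymphocyte), 39 and 13 (stromal and endothelial), 5 and 0 (erythroid), and 57676 and 100385 (myeloid, nearly all from 1 gene, with 57397 and 100190). Alternatives were other denominators, stricter limits on barcodes, doublet scores or lymphocyte UMIs, thinned cells, clusters, a stricter gate, means of log values, another fold limit and another minimum count.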

Additional observations from a re-analysis of the deposited data

Results flagged for a closer look

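The log2 ratio of KO to WT for Tle3 was 1.03 (0.63 to 1.43) in mEC-like cells, while it was -0.53 (-1.004 to -0.07) in CBC-like and -0.74 (-1.17 to -0.31) in TAC-like cells. It stands out because the counting intervals lay on opposite sides of 0 under the same contrast. Against genes of like length it was higher in all 3, by 1.94, 0.29 and 0.15, so the opposite directions depend on the scaling. The difference between the classes was not tested, since each genotype was 1 pooled sample.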

How the results depend on the processing

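No paired analysis was possible because each genotype was 1 pooled matrix, and for the same reason no replicate could be left out in turn. Subtracting the median of genes of like length, chosen after seeing the data, turned the median over the members positive for mEC-like (0.42), imEC-like (0.36), TAC-like (0.15) and CBC-like cells (0.29) and moved it to 0.38 for EEC-like and -0.0944 for GC-like cells. By the construction of this setting, single genes of the longest quartile turned too: Tcf7l2 to 0.52 for mEC-like, 0.27 for imEC-like, 0.0872 for TAC-like, 0.29 for CBC-like and 0.0113 for all kept cells, Tle1 to 0.31 for mEC-like, 0.53 for imEC-like and 0.22 for PC-like cells, and Tle3 to 0.15 for TAC-like and 0.29 for CBC-like cells. With genes above 1% out of the total, the median over the members in all kept cells was -0.87, in place of -0.53, and the ratio of Tle3 there was -0.00142; this scaling moved the median of all genes by -0.34 in all kept cells, -0.12 in GC-like and 0.10 in mEC-like cells. Thinning to 1500 UMIs turned Tcf7l2 in mEC-like cells to 0.0138 and gave a Groucho share of 56.8% in all kept WT cells; the cause was not tested. Means of log-normalised values gave a median of -0.29 in GC-like cells. At a fold limit of 2, 11 of 48 pathway genes were lower in CBC-like cells and 0 of 53 in all kept cells, in place of 25 and 15. At 1.5-fold 36.1% and 20.5% of all genes were lower. The share of all genes lower by 2-fold was not taken, so the counts at 2-fold have no background. Tle4 kept its direction under the alternatives run in each class with a value, from -1.81 to -1.19 in mEC-like cells, -1.40 to -0.50 in CBC-like cells and -0.72 to -0.02 in GC-like cells. Tle3 in mEC-like cells ranged from 0.87 to 1.94. With clusters in place of gates no WT cluster was named imEC-like, so that class has no value there. Rare members are limited by depth: in TC-like cells 3 UMIs stand for 5.04 CPM in WT and 6.98 CPM in KO.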
